A study of Mus musculus with 18 samples.

Results

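The response to estrogen of mouse cumulus cells kept with oocytes was measured in cocultures, in which cumulus cell complexes emptied of their oocyte (OOX in the labels) shared the dish with oocytes. Arrays were taken by their titles: 3 arrays labelled E2 OOX + Oocytes, cultured with estrogen, against 3 labelled OOX + Oocytes, cultured without it. These are 6 of the 18 arrays of the series, with 1 Affymetrix array per sample. The other 12 held intact cumulus-oocyte complexes (COC) and oocyte-free complexes, each with and without estrogen, 3 arrays per group. All complexes came from antral follicles of female mice, and the strain, age, estrogen dose, culture time and number of oocytes are not given in the sources used here. Whether the 3 samples within a group were separate cultures or animals is not stated, so a p-value reflects how far these samples spread, and that spread may be technical.

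Cumulus cells are the granulosa cells that stay in contact with the oocyte of an antral follicle. They receive secreted factors from the oocyte, among them GDF9 and BMP15, which act through SMAD proteins, and estrogen from the mural granulosa cells that line the follicle wall. Estrogen acts mainly through the receptors ESR1 and ESR2, transcription factors that bind DNA as pairs at a palindrome made of GGTCA and TGACC. In this follicle, C-type natriuretic peptide (Nppc) from mural cells acts on its receptor NPR2 in cumulus cells, which make the cyclic GMP that keeps the oocyte from resuming meiosis. Activins are dimers of the beta subunits encoded by Inhba and Inhbb, and the same subunits form inhibins with the alpha subunit Inha.

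Promoter windows of 4 genes are printed here because the results return to them: Col4a1 and Col4a2, the collagen IV genes that fell most and face each other head to head, and Inhba and Npr2, which rose. Each window runs from 250 bases before to 50 bases after the gene's start in RefSeq, 5′ to 3′ on the gene's strand, on mouse build GRCm38.p6. Col4a1 is at chr8:11312777-11313076 on the minus strand, Col4a2 at chr8:11312555-11312854 on the plus strand, Inhba at chr13:16011601-16011900 on the plus strand and Npr2 at chr4:43631685-43631984 on the plus strand. In the collagen windows, capitals mark the 78 bases that both hold, as reverse complements of each other. In the Inhba window, capitals mark GGTCA or TGACC, and the Npr2 window holds 0 of them.
Col4a1: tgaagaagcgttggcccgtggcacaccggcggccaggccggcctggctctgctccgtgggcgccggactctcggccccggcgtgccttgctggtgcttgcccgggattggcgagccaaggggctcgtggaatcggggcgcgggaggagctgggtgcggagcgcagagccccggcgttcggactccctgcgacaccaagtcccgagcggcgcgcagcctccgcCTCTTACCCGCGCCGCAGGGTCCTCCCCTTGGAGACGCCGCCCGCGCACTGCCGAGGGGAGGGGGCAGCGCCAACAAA
Col4a2: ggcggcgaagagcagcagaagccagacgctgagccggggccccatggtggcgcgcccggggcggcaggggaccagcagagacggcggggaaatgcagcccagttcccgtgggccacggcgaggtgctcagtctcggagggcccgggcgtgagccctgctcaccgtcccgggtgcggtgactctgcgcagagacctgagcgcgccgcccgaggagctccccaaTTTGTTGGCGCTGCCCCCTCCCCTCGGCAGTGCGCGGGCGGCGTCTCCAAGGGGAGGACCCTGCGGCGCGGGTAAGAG
Inhba: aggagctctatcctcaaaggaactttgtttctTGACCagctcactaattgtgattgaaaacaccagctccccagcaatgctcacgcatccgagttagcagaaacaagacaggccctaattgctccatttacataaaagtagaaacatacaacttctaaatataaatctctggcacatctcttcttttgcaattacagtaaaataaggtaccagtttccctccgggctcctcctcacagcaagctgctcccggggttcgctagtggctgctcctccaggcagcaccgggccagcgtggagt
Npr2: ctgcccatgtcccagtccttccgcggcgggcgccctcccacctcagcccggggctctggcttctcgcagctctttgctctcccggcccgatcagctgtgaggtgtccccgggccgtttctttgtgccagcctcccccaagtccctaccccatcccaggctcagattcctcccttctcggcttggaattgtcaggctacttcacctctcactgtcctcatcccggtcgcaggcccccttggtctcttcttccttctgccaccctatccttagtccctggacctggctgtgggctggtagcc

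Of the 570 genes that limma called with estrogen in cocultures (4.65% of those tested), 446 had a window in the RefSeq table. The full palindrome, GGTCA and TGACC with any 3 bases between them, was in 0 of these, in 3 of the 9868 tested genes with a window and in 23 of 32851 windows (0.07%). The single arms GGTCA or TGACC, which are parts of the palindrome, were searched on both strands. They were found for 42.5% of the 221 genes with a window that rose and 43.1% of the 225 that fell. They were found for 42.5% of the 9868 tested genes with a window and in 40.5% of the 32851 windows. The last share counts windows and the others count genes. A gene can have several windows, so the last share is not a like measure to the others. These are counts of letters in a short window and describe no binding.

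Values are log2 expression values, and a difference of 1 is a 2-fold difference. Genes were tested with limma over the 12246 genes that passed the filter on low values, and a gene was called where the Benjamini-Hochberg adjusted p was under 0.05. A called gene is said to have risen or fallen. Differences are with minus without estrogen and carry the standard error (SE) of the fit, which pools the spread of all 6 groups, with 3 arrays per group. All 11 cumulus markers on the table lay above the array median on all 6 coculture arrays. Of 12 endothelial and blood cell markers 9 lay below it on all 6 and 2 above, and of 22 oocyte markers 12 and 4. Gdf9, an oocyte gene, read 6.93 to 7.16 without and 6.75 to 7.03 with estrogen. It read 6.63 to 7.19 and 6.61 to 6.90 in oocyte-free complexes, so it does not tell whether oocyte RNA was present. Bcl2l10, another oocyte marker, averaged 8.11 without and 8.42 with estrogen in cocultures, and 4.40 and 4.34 in oocyte-free complexes. Tle6 of the same list went the other way without estrogen, at 7.15 in cocultures and 8.27 in oocyte-free complexes. Without estrogen the mean over the 22 markers was 5.07 to 5.54 in cocultures and 5.00 to 5.40 in oocyte-free complexes, which overlap. Bcl2l10 alone therefore does not settle whether oocyte RNA was present. Replicate 2 of the cocultures without estrogen stood somewhat apart. Its correlation with the other arrays of its group was 0.9697 and 0.9748, against 0.987 between those 2, its interquartile range was 2.78 against 3.04 to 3.19, and it alone of the 6 came from a second series of array names.

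Estrogen shifted 570 of the 12246 genes in cocultures (4.65%), with 284 higher (2.32%) and 286 lower (2.34%). The median difference over all tested genes was -0.0067. Of the called genes, 309 changed at least 2-fold (2.52%), and 28 rose and 25 fell at least 4-fold. An unadjusted p under 0.05 was reached by 1968 genes (16.1%). For 2831 genes (23.1%) the groups had no overlap between their arrays, among them 569 of the 570 called. Without replicate 2 of the cocultures without estrogen, 513 genes were called, and without replicate 3 of those with estrogen 373.

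The collagen IV chains Col4a1 and Col4a2, which form the network of basement membranes, were among the 3 largest falls. Col4a1 read 9.96, 8.25 and 9.63 without estrogen and 5.24, 4.74 and 4.86 with it, a fall of 4.33 ± 0.32 on the log2 scale (limma adjusted p = 2.65e-07). Col4a2 read 7.83, 6.56 and 7.49 without and 4.06, 4.12 and 4.35 with estrogen, and fell by 3.12 ± 0.24 (limma adjusted p = 5.26e-07). For both genes replicate 2 was the lowest of the arrays without estrogen, and it still lay well above every array with estrogen. Igfbp7, a secreted relative of the insulin-like growth factor binding proteins, read 10.17, 9.56 and 10.53 without and 6.85, 6.38 and 6.69 with estrogen, and fell by 3.45 ± 0.19 (limma adjusted p = 1.01e-08). Its groups did not overlap.

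Among the other large falls, the proteoglycan gene Cspg4 changed by -3.00, Tmsb4x, whose product binds actin monomers, by -2.97 and Cd24a, a cell surface glycoprotein gene, by -2.69. The actin-binding caldesmon gene Cald1 changed by -2.67, the transmembrane protein gene Tmem184a by -2.64, the smooth muscle actin gene Acta2 by -2.59 and the serine protease gene Cela1 by -2.58. Npas4, an activity-induced transcription factor gene, changed by -2.53 and the PX domain gene Pxdc1 by -2.43. Over these 12 genes the limma adjusted p-values ran from 1.01e-08 to 0.00615. The group with estrogen averaged under 7 for 10 of the 12. Its means were 4.11 for Npas4, 4.18 for Col4a2, 4.19 for Tmem184a and 4.95 for Col4a1, each below the array medians of 5.51 to 5.71 on all 3 arrays, where RMA values are compressed and the size of a fall is uncertain.

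The largest rise by this measure was that of Cbfa2t3, which encodes a transcriptional corepressor. It read 5.33, 5.56 and 5.15 without and 8.76, 8.88 and 9.11 with estrogen, a rise of 3.57 ± 0.32 (limma adjusted p = 1.54e-06). Its 3 arrays without estrogen lay below their array medians, and for 8 of the 12 largest rises the group without estrogen averaged under 7, so that sizes and ranks are uncertain there too. Tmem25, a transmembrane protein gene, read 6.46, 6.32 and 6.18 without and 9.56, 9.47 and 9.59 with estrogen, and rose by 3.22 ± 0.16 (limma adjusted p = 2.43e-09). Both genes were tight within each group, and their lack of overlap was part of the rule that picked them. Tmem86a, a lysoplasmalogenase gene, rose by 3.33, Rbfox3, a splicing factor gene known from neurons, by 2.98 and the noncoding RNA gene Rian by 2.86. The fibrillin gene Fbn2 rose by 2.79, the water channel gene Aqp8 by 2.76, Notum, whose product inactivates Wnt proteins, by 2.72 and the microtubule kinase gene Mark1 by 2.69. Serpina3a, of the serine protease inhibitors, rose by 2.68 and Cbs, an enzyme gene of homocysteine metabolism, by 2.65.

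Gpx3, which encodes an extracellular glutathione peroxidase, was the least even of the large rises. It read 9.79, 8.23 and 7.02 without and 10.90, 10.95 and 11.33 with estrogen, and rose by 2.71 ± 0.54 (limma adjusted p = 0.00436). The arrays without estrogen spread over a wide range, and all 3 still lay below the arrays with estrogen. Each gene is given by 1 probe set, and its others need not read the same. Of the 75 called genes named by the rule, 37 had 65 other tested probe sets, of which 62 had the same sign and 31 were also called that way. Averaging all probe sets of a gene moved 22 of the 75 by more than 1.5 times, 21 of them to a smaller value. Among the largest rises these were Cbfa2t3 at 1.46, Tmem25 at 2.13, Rbfox3 at 1.43 and Mark1 at 1.53. Among the largest falls they were Igfbp7 at -1.29, Cald1 at -1.55 and Acta2 at -0.99. The averages include probe sets that did not pass the filter on low values, but probe sets that passed it also read smaller changes. The 3 other tested probe sets of Cbfa2t3 differed by 0.22 to 1.05, that of Tmem25 by 1.04 and that of Rbfox3 by 0.52. The other tested probe set of Igfbp7 differed by -0.15 and was not called. Acta2, Inhba, Nr5a1, Angpt4 and Bcl2l1 had 0 other tested probe sets, so their averages mix in only probe sets that failed it.

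**Figure D1:**
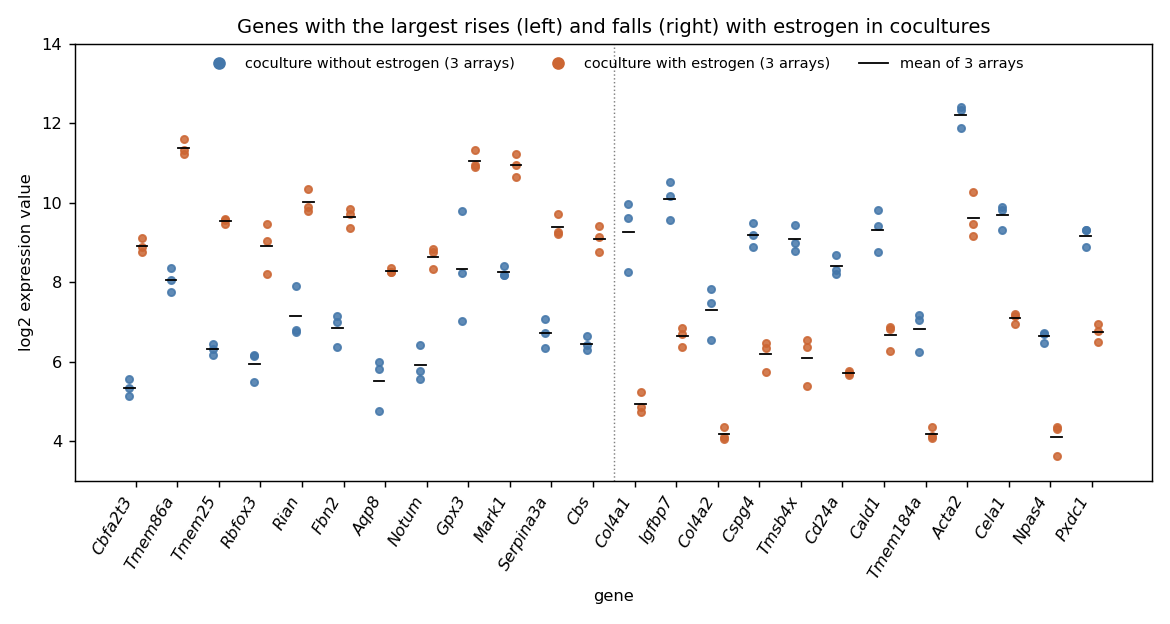
Log2 expression value (vertical axis) of 24 called genes without overlap, the 12 that rose most and the 12 that fell most, on the 3 coculture arrays without estrogen (blue) and the 3 with it (orange), with group means as bars. The groups are separate for every gene shown because the rule asks for it, by gaps of 1.11 to 3.20, and Gpx3 and Col4a1 have the wider spread without estrogen.

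Matrix genes were mostly lower with estrogen where they were called. Of 24 tested genes of extracellular matrix and adhesion, 8 fell, 1 rose and 15 were not called, with a list median of -0.24. Over all 12246 tested genes 2.34% fell and 2.32% rose, and each list count below is to be read beside these shares. Besides the collagens, these were Sparc, a matrix-binding glycoprotein gene, at -1.60, the proteoglycan gene Bgn at -1.53, the basement membrane linker gene Nid1 at -1.35, the protease inhibitor gene Timp1 at -1.27, the laminin gene Lama1 at -1.06 and the tenascin gene Tnc at -0.61. Sparc read 11.72, 11.31 and 11.45 without and 10.38, 9.85 and 9.44 with estrogen. Its nearest arrays of the 2 groups lay 0.93 apart. The laminin receptor subunit gene Itga6 rose by 1.14, and without replicate 2 of the cocultures without estrogen the list had 7 falls and 0 rises. Other matrix genes were not called, such as the laminin gene Lamb1 at 0.62, the perlecan gene Hspg2 at -0.20 and the fibronectin gene Fn1 at -0.17.

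Actin and contractile genes were put on a list after their values had been seen, so their count is a description. Of 31 tested, 11 fell and 1 rose, beside 2.34% and 2.32% of all tested genes, with a median of -0.55. Acta2 read 12.42, 11.88 and 12.35 without and 10.27, 9.16 and 9.46 with estrogen, a change of -2.59 ± 0.31 (limma adjusted p = 4.65e-05). All 3 arrays with estrogen lay more than 1 log2 unit below the lowest array without it. The myosin light chain kinase gene Mylk changed by -2.17, the actin cross-linking gene Palld by -2.10, the transgelin genes Tagln and Tagln2 by -1.89 and -1.76, the myosin light chain gene Myl9 by -1.51 and the tropomyosin genes Tpm1 and Tpm2 by -1.30 and -0.83. The LIM protein gene Csrp2 changed by -1.38. Ppp1r14a, whose product inhibits myosin phosphatase, rose by 2.00. In array series 1 alone, 18 of the 31 fell and 1 rose. Over all 12246 tested genes 493 fell in that setting, against 286 in the main fit.

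Of 9 theca and stroma markers tested, 4 fell and 0 rose, beside 2.34% and 2.32% of all tested genes, with a median of -0.28. The 4 were Acta2 and Tagln, which are also on the actin list, and Gli1 and Ptch1. Pdgfrb, a receptor gene of pericytes and stromal cells, averaged 7.58 without and 8.40 with estrogen and Nr2f2 8.86 and 8.97, neither of them called. With the array series as a term 1 of the 9 markers rose and 4 fell. The level summed over the 13 markers on the table, on the linear scale, was 5701 to 7997 without and 2126 to 2779 with estrogen. Most of that sum without estrogen was Acta2, and over the other 12 markers it was 1932 to 2516 without and 1544 to 1625 with estrogen. The defining theca gene Cyp17a1 and the stroma genes Lum, Col1a1 and Tcf21 did not pass the filter on low values. Cyp17a1 read 4.73 to 5.08 and Col1a1 4.91 to 5.00 with estrogen, both under the array medians. In a bulk sample fewer cells of a type and less RNA per cell cannot be told apart, and the part of other cell types in the falls was not tested. The summed level of endothelial and blood cell markers was 373 to 424 without and 343 to 368 with estrogen.

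Among Hedgehog pathway genes, Gli1 and Ptch1 fell and the ligand gene Ihh rose. Gli1, the transcription factor that is itself a target of the pathway, read 7.41, 7.03 and 7.83 without and 5.53, 5.28 and 5.48 with estrogen, and fell by 1.99 ± 0.18 (limma adjusted p = 1.38e-06). Ptch1, the receptor and also a target, read 10.14, 9.57 and 10.17 without and 8.42, 8.77 and 8.65 with estrogen, a change of -1.35 ± 0.18 (limma adjusted p = 9.65e-05). Both genes had 3 low arrays with estrogen and no overlap. The 2 other tested probe sets of Ptch1 differed by -0.87 and -0.12 and were not called, and the mean of its probe sets changed by -0.78. Ihh rose by 1.08 ± 0.20, while the related ligand Dhh read 0.52 higher and was not called, and neither was Gli2 at -0.88. Of the Notch genes, the ligand gene Jag1 changed by -1.15 and the target Heyl by -1.29, while the target Hey2 rose by 1.38. Of the Wnt genes, the receptor Fzd1 changed by -0.87 and the inhibitor-related gene Dkk3 rose by 0.84. Over the 21 tested genes of the 3 pathways, 5 fell, 3 rose and the median was -0.29.

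Both activin beta subunit genes rose. Inhba read 10.88, 10.60 and 10.61 without and 12.78, 12.70 and 12.80 with estrogen, a rise of 2.06 ± 0.18 (limma adjusted p = 1.38e-06). Inhbb read 11.06, 10.04 and 9.75 without and 12.33, 12.74 and 12.61 with estrogen, and rose by 2.28 ± 0.32 (limma adjusted p = 0.000217). The arrays with estrogen were close together for both, and those without were more spread for Inhbb. The alpha subunit Inha differed by 0.18 and the activin-binding follistatin gene Fst by 0.33, and neither was called. Pmepa1, an inhibitor of SMAD signalling and a target of it, read 10.26, 10.32 and 10.21 without and 8.98, 8.94 and 8.80 with estrogen, and fell by 1.36 ± 0.19 (limma adjusted p = 0.000215). Receptors and SMADs on the activin list were not called, so that 2 of 14 tested genes rose and 1 fell, with a median of 0.21. With all probe sets averaged, the rise of Inhba was 0.95, and its other probe set did not pass the filter on low values.

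Genes on the list of BMP and oocyte factor signalling moved in both directions, with 4 of 19 tested rising, 2 falling and a median of -0.01. Of all tested genes 2.32% rose and 2.34% fell. The BMP target Id1 read 7.62, 7.46 and 7.67 without and 8.98, 8.59 and 8.63 with estrogen, and rose by 1.15 ± 0.17 (limma adjusted p = 0.000325). The target Id3 rose by 0.79, the BMP antagonist Grem1 by 0.99 and the common mediator Smad4 by 0.45. Id4 fell by 1.5 and the ligand gene Bmp2 by 1.19. Thus 2 Id genes were higher and 1 lower, each without overlap of its groups. Amh, the anti-Mullerian hormone gene, differed by -0.42 (limma adjusted p = 0.0897, and 0.0394 with array weights), and Kitl, the Kit ligand gene, by 0.16. Without replicate 2 of the cocultures without estrogen, 2 genes rose and 2 fell, and the call of Grem1 was lost when any of 4 of the 6 arrays was left out (0.76 to 1.05).

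In the natriuretic peptide pathway the receptor rose and the ligand was not called. Npr2 read 9.21, 8.68 and 8.89 without and 10.63, 11.12 and 11.46 with estrogen, a rise of 2.14 ± 0.22 (limma adjusted p = 8.68e-06). Nppc read 7.13, 7.30 and 6.97 without and 7.68, 7.05 and 7.19 with estrogen, a difference of 0.17 ± 0.21 (limma adjusted p = 0.738). The arrays of Nppc overlapped, and those of Npr2 were apart by more than 1 log2 unit. Gja4, which encodes connexin 37, a gap junction protein of the oocyte and its surroundings, read 5.11, 4.97 and 4.53 without and 6.36, 5.94 and 5.86 with estrogen, and rose by 1.18 ± 0.20 (limma adjusted p = 0.000957). It was dim in both groups. The cumulus connexin gene Gja1 differed by 0.06, and the cyclic GMP phosphodiesterase gene Pde5a by -1.08 without being called. In all, 2 of 10 tested genes rose and 0 fell, with a median of 0.13.

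Of the 13 genes tested for estrogen receptors and coregulators 1 was called, and of the 27 classical estrogen targets 2, beside 4.65% of all tested genes. Esr1 read 9.49, 8.82 and 9.09 without and 9.02, 8.89 and 8.64 with estrogen, a difference of -0.28 ± 0.31 (limma adjusted p = 0.714). Esr2 differed by -0.16 ± 0.24. The arrays of Esr1 and of Esr2 overlapped between the groups. The 1 called receptor or coregulator gene was that of the corepressor Nrip1, which rose by 0.78. That call was lost when any of 3 of the 6 arrays was left out (0.69 to 0.76). Of the classical targets 1 rose and 1 fell, with a median of -0.08. Greb1, a target and cofactor of the receptor, read 11.56, 11.80 and 11.85 without and 12.35, 12.56 and 12.66 with estrogen, and rose by 0.79 ± 0.14 (limma adjusted p = 0.00225). Its 3 arrays with estrogen lay narrowly above the others. Cited2, a transcriptional coregulator gene, read 9.11, 9.03 and 9.28 without and 7.27, 7.55 and 7.19 with estrogen, and fell by 1.80 ± 0.20 (limma adjusted p = 2.16e-05). The growth factor gene Vegfa differed by 1.16 ± 0.35 (limma adjusted p = 0.0686), with 8.83, 7.54 and 7.21 without and 8.72, 9.13 and 9.22 with estrogen. One array without estrogen overlapped the arrays with it.

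Pgr, the progesterone receptor gene, and Ptgs2, a prostaglandin synthase gene, did not pass the filter on low values. Pgr read 4.51, 4.47 and 4.43 without and 4.32, 4.12 and 4.10 with estrogen, and Ptgs2 read 3.55, 3.55 and 3.65 without and 3.43, 3.40 and 3.34 with it. Both lay under the array medians on all 6 arrays. Has2, the hyaluronan synthase gene of cumulus expansion, read 7.06, 6.47 and 6.21 without and 5.70, 5.83 and 5.67 with estrogen, and fell by 0.85 ± 0.23 (limma adjusted p = 0.0382). That call was lost when any of 5 of the 6 arrays was left out (-0.90 to -0.61). Lhcgr and Cyp19a1 were not analysed here.

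Of 13 transcription factor genes of granulosa cells tested, 3 rose and 1 fell, beside 2.32% and 2.34% of all tested genes, with a median of 0.41. Nr5a1, which encodes steroidogenic factor 1, read 8.97, 8.48 and 8.85 without and 10.56, 10.41 and 10.98 with estrogen, and rose by 1.88 ± 0.32 (limma adjusted p = 0.00125). Gata4, a zinc finger factor gene, rose by 1.28, the forkhead factor gene Foxo3 by 0.74, and Runx1 fell by 1.19. The arrays of Nr5a1 were more than 1 log2 unit apart, and the calls of Gata4 and Foxo3 were lost when any of 5 and any of 3 of the 6 arrays was left out (1.07 to 1.37 and 0.60 to 0.74). With all probe sets averaged, Nr5a1 rose by 1.01, Gata4 differed by 0.64, Foxo3 by 0.36 and Runx1 by -0.50. Foxl2, which maintains granulosa identity, differed by 0.45 and was not called.

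Among 11 genes of steroid synthesis and metabolism, 2 rose and 0 fell, with a median of 0.05. Hsd11b2, whose enzyme inactivates glucocorticoids, read 8.37, 8.53 and 8.75 without and 9.85, 9.71 and 10.23 with estrogen, and rose by 1.38 ± 0.20 (limma adjusted p = 0.000249). The lipoprotein receptor gene Scarb1 rose by 0.69, a call lost when any of 4 of the 6 arrays was left out (0.59 to 0.69). Star, the cholesterol transfer protein gene, differed by -0.05 and the side-chain cleavage enzyme gene Cyp11a1 by 0.57. The 9 other genes were not called. Of 14 hormone and growth factor receptor genes, the prostaglandin E2 receptor Ptger2 fell and Igf2r, which clears IGF2, rose. Ptger2 read 7.85, 7.68 and 7.87 without and 5.15, 5.91 and 5.30 with estrogen, and fell by 2.35 ± 0.23 (limma adjusted p = 4.62e-06). The FSH receptor gene Fshr differed by 0.35 ± 0.27 (limma adjusted p = 0.569).

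Immediate early genes were lower where they were called. Of 18 tested, 4 fell and 0 rose, beside 2.34% and 2.32% of all tested genes, with a median of -0.68. Egr1, a zinc finger factor gene, read 11.57, 11.21 and 11.28 without and 9.86, 9.70 and 9.26 with estrogen, and fell by 1.75 ± 0.20 (limma adjusted p = 1.93e-05). The stress-inducible gene Ier3 fell by 1.03, the phosphatase gene Dusp6 by 0.94 and Zfp36, whose product destabilises messenger RNAs, by 0.93. Egr1 was apart by more than 1 log2 unit, while Junb at -1.08, Myc at -1.0 and Fos at -0.32 were not called. The calls of Ier3, Dusp6 and Zfp36 were lost when any of 3, 5 and 3 of the 6 arrays was left out. After repeated quantile normalization 8 of the 18 fell, and with arrays centred on their median 9 did, as with the array series as a term. Falls over all 12246 tested genes also went up in these settings, from 286 to 346, 373 and 440 in turn.

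Heat shock and endoplasmic reticulum stress genes split. Hspb1, a small heat shock protein gene, read 11.46, 10.76 and 11.57 without and 9.38, 8.75 and 9.01 with estrogen, and fell by 2.22 ± 0.22 (limma adjusted p = 4.07e-06). The inducible HSP70 genes Hspa1a and Hspa1b rose by 1.71 and 1.53, Herpud1 by 1.05 and the pseudokinase gene Trib3 by 0.76. Hspa1a and Hspa1b are near-identical copies, so their probe sets may share signal. Of 18 tested, 4 rose and 1 fell, beside 2.32% and 2.34% of all tested genes, with a median of 0.24. Without replicate 2 of the cocultures without estrogen, 1 rose and 1 fell.

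Transport and metabolism genes changed one by one, with few calls per list beside 4.65% of all tested genes. Slc16a1, a lactate and pyruvate transporter gene, rose by 1.46 and was the 1 called of 17 glycolysis and lactate genes (median 0.34). Of 18 amino acid transporters, Slc38a3 rose by 1.53 and Slc38a4 fell by 1.76 (median -0.05). Slc38a3, a transporter that oocytes are known to raise in cumulus cells, read 9.11, 9.54 and 9.50 without and 10.52, 10.94 and 11.29 with estrogen. Its groups did not overlap. Of 19 cholesterol synthesis genes, Lss rose by 0.79 and Fdft1 by 0.94 (median 0.18), and the call of Fdft1 was lost without any 1 of the 6 arrays (0.88 to 1.01). The vascular ligand genes Angpt4 and Angpt2 rose by 1.66 and 1.64, the 2 called of 12 tested. With probe sets averaged they changed by 1.04 and 0.90, and the other tested probe set of Angpt2 differed by 0.16 without a call. In the IGF list, Irs2 fell by 0.97 beside Igfbp7, and of 15 cell death genes Gadd45a fell by 1.61 and the survival gene Bcl2l1 rose by 0.68. The call of Irs2 was lost when either of 2 arrays was left out, and that of Bcl2l1 without replicate 3 of the cocultures with estrogen (0.58).

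Cell division genes were not called in either direction in the main fit. Of 24 genes of DNA replication, 0 rose and 0 fell, with differences of -0.65 to 0.18 and a median of -0.04. Of 24 genes of mitosis, 0 were called, with differences of -0.16 to 0.60 and a median of 0.14, and of 17 cyclin and CDK inhibitor genes 0 were called. The median SE of a difference over all genes was 0.197, so that these intervals leave room for small shifts. Over all tested genes 4.65% were called, and 0 calls in lists this short is near that share. With the series term, in series 1 alone and after either rescaling, 1 DNA replication gene fell. In the series settings and after repeated quantile normalization, 1 cyclin or CDK inhibitor gene fell. Housekeeping genes, 0 of 8 called, differed by -0.28 to 0.11. Mural granulosa markers summed to 17748 to 22067 without and 29418 to 33452 with estrogen on the linear scale. Of the 8 tested, Inhba and Inhbb rose, by 2.06 and 2.28, and 6 were not called. Among those 6, Hsd17b1 averaged 13.08 without and 13.13 with estrogen and Fst 12.84 and 13.17. A sum without Inhba and Inhbb was not made, so this one does not show a shift of the whole list. Cumulus markers summed to 10014 to 13618 without and 13997 to 16914 with estrogen, with Npr2 and Slc38a3 the 2 that rose of 11. The part of these marker shifts in the other results was not tested.

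**Figure D2:**
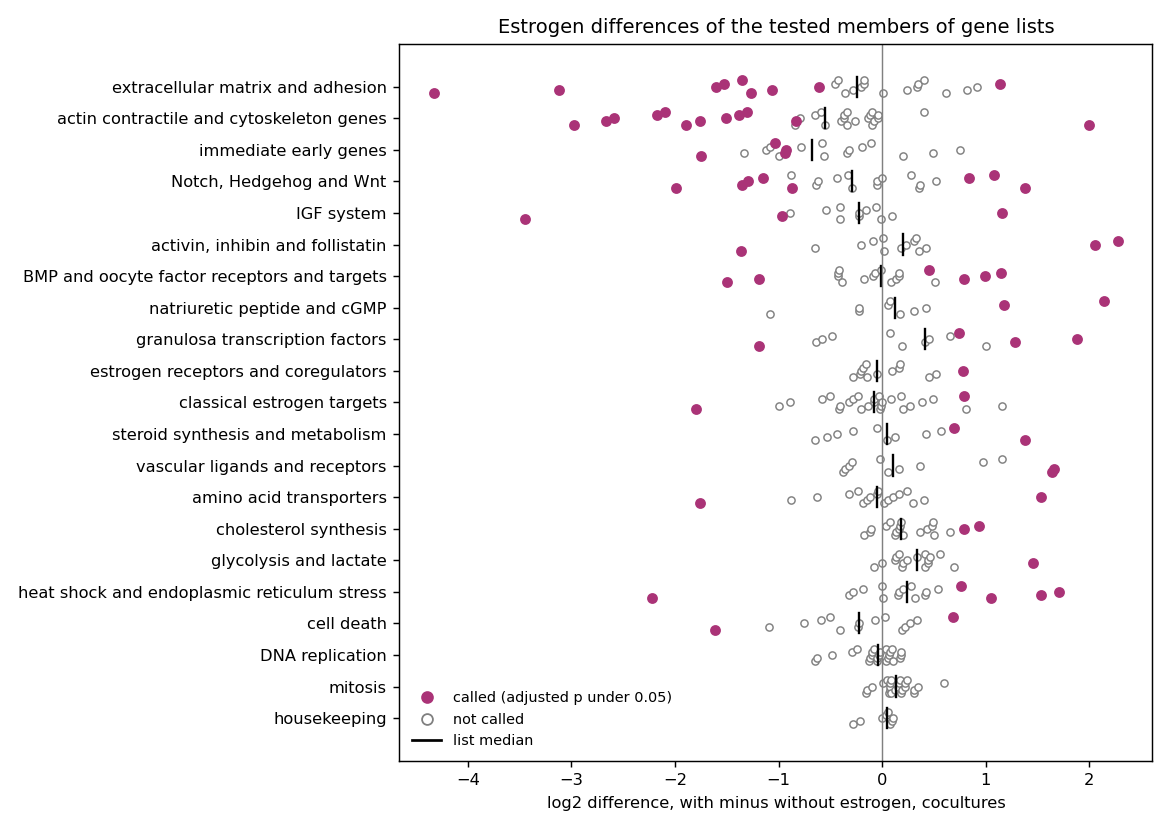
Log2 difference with minus without estrogen in cocultures (horizontal axis) of each tested member of 21 gene lists, with called genes filled, other genes open and the list median as a bar. The called matrix and actin genes lie mostly to the left, down to Col4a1 at -4.33, while DNA replication and mitosis genes stay around 0 with 0 called. Over all tested genes 4.65% were called.

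The next comparison set cocultures beside intact complexes, to see whether cells given oocytes in the dish answered estrogen as did cells still around their own oocyte. The 2 estrogen contrasts share no array. In intact complexes 708 genes were called (5.78%), 422 higher and 286 lower. With arrays centred on their median the split was 322 and 443, and after repeated quantile normalization 379 and 395. Of the coculture calls, 418 were also called in the same direction in intact complexes, 73.3% of the coculture list and 59.0% of the intact list, and 0 in the opposite one. The sign was the same for 568 of the 570. Across the 12246 genes, which are not independent, Pearson's r of the 2 differences was 0.814 and Spearman's rho 0.71, as a description. The genes that rose in cocultures had a median difference of 1.05 there and 0.998 in intact complexes, and those that fell -1.06 and -0.935. The medians from cocultures are those of the genes chosen there.

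Of the 12 largest rises in cocultures, 12 also rose in intact complexes, and of the 12 largest falls 11 also fell. Col4a1 changed by -3.58 in intact complexes, Igfbp7 by -3.33, Col4a2 by -2.49 and Cspg4 by -3.16, while Npas4 at -1.79 was not called (limma adjusted p = 0.0525). Cbfa2t3 rose by 3.68, Rian by 3.79, Npr2 by 2.06, Inhba by 2.11 and Inhbb by 2.36. Hspa1a differed by 0.44, Tnc by -0.04 and Has2 by -0.54 in intact complexes without a call.

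The test of the difference itself, the estrogen effect in cocultures minus that in intact complexes, called 0 genes with limma (0%), and 218 had an unadjusted p under 0.05 (1.78%). This does not show that the responses are alike. The smallest p-values were those of Filip1l, Cited2 and Gadd45g. Filip1l, a filamin-interacting protein gene, read 7.77, 6.97 and 7.90 without and 5.43, 5.20 and 5.49 with estrogen in cocultures, and fell by 2.17 there. It differed by -0.65 in intact complexes. The gap between the contrasts was -1.52 ± 0.33, and limma called it once array series entered the fit (-1.82, adjusted p = 0.00166), in array series 1 alone (-1.81, adjusted p = 0.0108) and with array weights (-1.67, adjusted p = 0.0053). Cited2 changed by -1.80 in cocultures and -0.60 in intact complexes, a gap of -1.20, which was called with array weights (-1.38, adjusted p = 0.00697). Gadd45g, a growth arrest gene, rose by 1.11 in cocultures and differed by -0.07 in intact complexes.

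**Figure D3:**
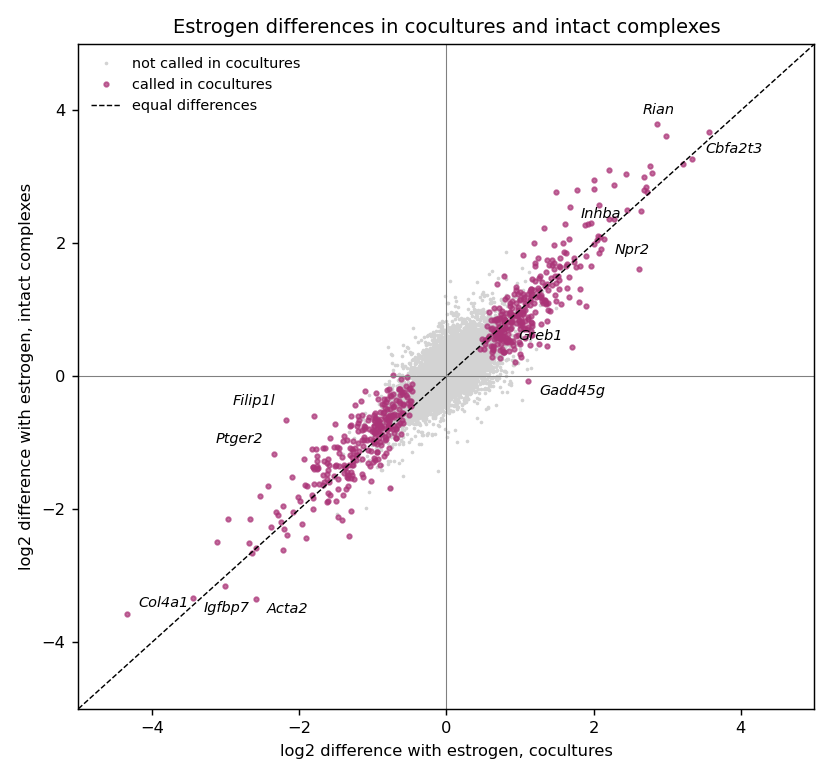
Log2 difference with estrogen in cocultures (horizontal axis) against that in intact complexes (vertical axis) for the 12246 tested genes, with the 570 called in cocultures in purple and a dashed line where both are equal. The called genes follow the line from Col4a1 at -4.33 and -3.58 to Cbfa2t3 at 3.57 and 3.68, and Filip1l and Gadd45g lie away from it.

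The third setting had no oocytes at all, and its arrays are again separate from those of the cocultures. In oocyte-free complexes 1181 genes were called with estrogen (9.64%), 738 higher (6.03%) and 443 lower (3.62%), and 440 of them changed at least 2-fold (3.59%). These groups spread more, with a median within-group SD of 0.274 without and 0.23 with estrogen, against 0.204 and 0.171 in cocultures. One of these arrays, replicate 1 with estrogen by its title, carries a treatment label without estrogen, and leaving it out left 526 genes. The 3 arrays without estrogen are all from array series 2 and 3, and 2 of the 3 with estrogen from series 1, so that series and estrogen are largely confounded in this culture type. Of the 570 coculture genes, 162 were called in the same direction in oocyte-free complexes (28.4% of the coculture list and 13.7% of the oocyte-free list) and 25 in the opposite one. Their sign was the same for 438. The genes that rose in cocultures had a median difference of 0.41 without oocytes, and those that fell -0.252. In all, 132 genes were called in the same direction in all 3 culture types, 265 in cocultures and intact complexes but not in oocyte-free ones, and 118 in cocultures alone.

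The difference between the estrogen effects in cocultures and in oocyte-free complexes was called for 341 genes (2.78%), with the effect in cocultures the higher for 109 (0.89%) and the lower for 232 (1.89%). The gap was at least 2-fold for 297 (2.43%). Among the 341 were 156 of the 570. Tmem25 rose by 3.22 in cocultures and 0.80 in oocyte-free complexes, a gap of 2.42 (limma adjusted p = 1.86e-05). Tmem86a, Aqp8, Mark1 and Rbfox3 rose by 3.33, 2.76, 2.69 and 2.98 in cocultures and read 0.47, 0.27, 0.23 and 0.06 without oocytes, where none of the 4 was called. Their levels also differed between the settings. Without oocytes Aqp8 averaged 4.09 without and 4.36 with estrogen, both under the array medians. Mark1 averaged 12.15 there without estrogen, above its 10.95 in cocultures with estrogen, and Tmem86a and Rbfox3 averaged 10.17 and 7.80 against 8.06 and 5.94 in cocultures without estrogen. Col4a1 changed by -4.33 and -1.72 and Igfbp7 by -3.45 and -2.20, so that both fell in either setting and fell more in cocultures. The same gap was called for 8 of the 12 largest rises and 9 of the 12 largest falls. These genes, like the 570, were chosen by their effect in cocultures, which favours a called gap and a smaller effect elsewhere.

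The gap was called for 11 of the 31 actin and contractile genes in the negative direction and 1 in the positive, with a median gap of -0.78. Over all tested genes it was called in the negative direction for 1.89% and in the positive for 0.89%. The list was drawn up after the coculture values were seen, a choice that favours a negative gap, so its count is a description. Genes of several lists went opposite ways. Acta2 changed by -2.59 in cocultures and 1.54 in oocyte-free complexes, a gap of -4.13 (limma adjusted p = 4.19e-05). The gap was -3.55 for Filip1l, which rose by 1.38 without oocytes, -2.04 for Csrp2, which rose by 0.66, and -2.34 for the actin regulator gene Eps8, which fell by 0.61 in cocultures and rose by 1.73. Pmepa1 and Ptch1 fell in cocultures and rose by 0.68 and 0.73 without oocytes, as did Slc38a4, with -1.76 and 1.17. Gm2102, a predicted gene, changed by -1.32 and 2.78. These 8 genes named by the rule were called in both settings with opposite signs. The coculture call of Gm2102 was lost when any of 3 of the 6 arrays was left out (-1.27 to -1.17), and that of Eps8 when either of 2 was (-0.53 for each).

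Other genes also rose with estrogen in the absence of oocytes, some of them from a lower level than in cocultures. Hsd11b2 rose by 1.38 in cocultures and 3.38 in oocyte-free complexes, and Slc38a3 by 1.53 and 3.04, and both gaps were called. Hsd11b2 averaged 4.49 without oocytes or estrogen, under the array medians, and 7.87 with estrogen, against 8.55 in cocultures without estrogen. Slc38a3 averaged 6.79 without oocytes or estrogen and 9.38 in cocultures without estrogen. Crispld2, a secreted protein gene, differed by 0.33 in cocultures without a call and rose by 2.75 without oocytes. Nppc was not called in cocultures and rose by 1.53 without oocytes, a gap of -1.36 (limma adjusted p = 0.015). For Fbn2, Cbs, Gpx3, Npr2 and Inhba the gap was not called: they rose by 2.79, 2.65, 2.71, 2.14 and 2.06 in cocultures and by 3.77, 2.28, 2.58, 1.56 and 1.44 in oocyte-free complexes. Of the 24 mitosis genes, 18 were called higher with estrogen in oocyte-free complexes and 0 in cocultures, beside 6.03% and 2.32% of all tested genes. The gap was called for 5 of them, with a median gap of -1.02. Baselines differed too: the cell division gene Ube2c averaged 6.21 without and 8.58 with estrogen without oocytes, and 10.54 and 10.73 in cocultures. The array series and the conflicting label of 1 oocyte-free array bear on this count as well.

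**Figure D4:**
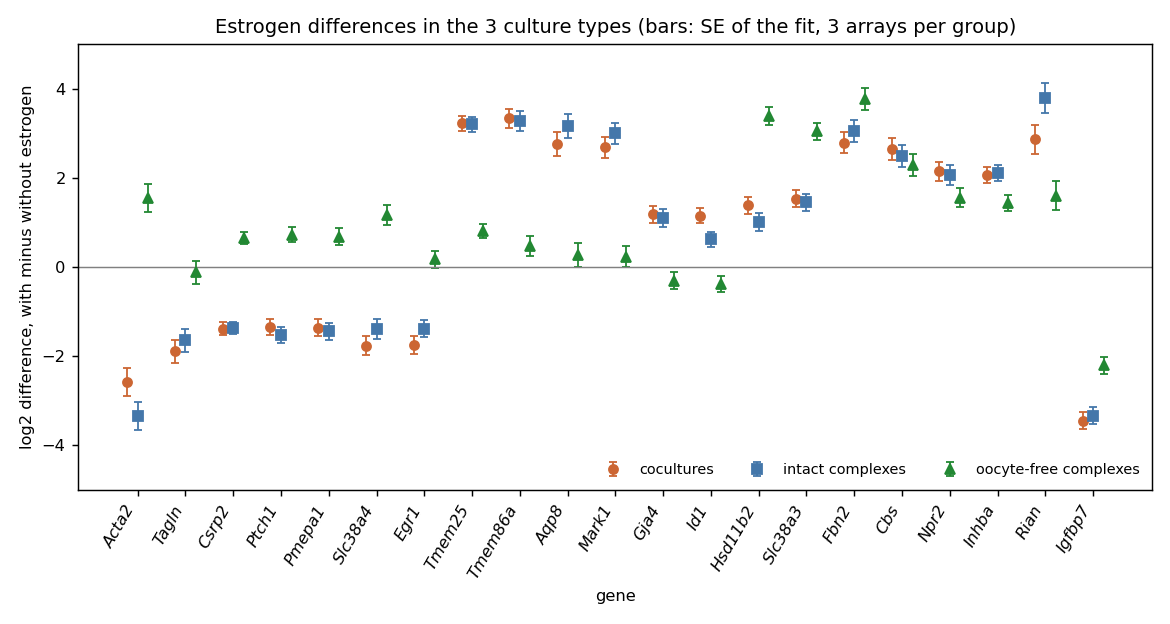
Log2 difference with minus without estrogen (vertical axis) of 21 named genes in cocultures (circles), intact complexes (squares) and oocyte-free complexes (triangles), with the SE of the fit as bars and 3 arrays per group. Circles and squares lie within 1 log2 unit of each other. Triangles lie across the 0 line for Acta2, Csrp2, Ptch1, Pmepa1, Slc38a4, Egr1, Gja4 and Id1. They lie under 0.5 for Tmem86a, Aqp8 and Mark1 and above the others for Hsd11b2, Slc38a3 and Fbn2.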

How the data were processed

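Total RNA (20 ng) of 18 mouse cumulus cell samples was amplified in 2 rounds and hybridised to Affymetrix arrays, as the labels describe. The table deposited by the authors holds log2 values from RMA, which the submitters' processing notes place in Affymetrix Expression Console 1.1, rounded to 2 decimals. RMA brings the arrays to nearly the same distribution, which hides a shift shared by most transcripts, and compresses low values. The genome build of the probe annotation is not stated.

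Of 45101 probe sets, 34945 carried 1 gene symbol, 932 several and 9160 none listed. The 64 control probe sets and those with several symbols were left out, and 34741 symbols were updated through a RefSeq table of GRCm38.p6. For each of 18193 genes the probe set of highest mean, taken across all 18 arrays, was used. Genes above the median of an array in at least 3 arrays were tested, which left 12246. Contrasts of 6 group means were fitted in limma (version 3.58.1, under R 4.3.3) with lmFit and eBayes, two-sided, with Benjamini-Hochberg adjustment over all tested genes and calls at adjusted p under 0.05. The fit was tested on simulated data.

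Groups came from the titles, and replicates are numbered by title number within a group. The title of 1 oocyte-free array with estrogen conflicts with its treatment label, and the title was followed. Whether equal numbers mark shared animals or cultures is not stated, and the numbers were not taken as pairs in the main fit. Same-numbered coculture arrays deviated from their group means with correlations of -0.234, -0.0261 and 0.402, and differently numbered ones with -0.388 to 0.328. Deviations from a mean of 3 arrays are tied to one another, so these values cannot show whether the numbers are pairs. No 2 arrays held the same values.

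The samples compared, the 29 gene lists (548 entries, 506 on the table, 417 tested) and the rule for named genes were chosen with earlier results of these data known, and 4 more lists were drawn up after the values were seen. The rule names the 12 largest rises and falls without overlap, up to 4 called members of each list, 17 genes fixed by name and the genes with the smallest p in each test of a difference between culture types. Genes outside it, such as other list members, were named after their values were seen. List members stand on more than 1 list in part. Summed marker levels are sums of 2 to the power of the log2 value. Alternatives covered the samples in the fit, the replicate block, array series, array weights, an intensity trend, rescaling, filters, probe sets and each array left out.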

Additional observations from a re-analysis of the deposited data

Results flagged for a closer look

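The estrogen effect differed between cocultures and oocyte-free complexes, by limma's test of the difference itself, for 341 genes, 109 with a more positive and 232 with a more negative effect in cocultures. The 40 named genes among them had adjusted p-values of 1.78e-05 to 0.0493, and 38 of them were called in cocultures. These genes were mostly named for their effect in cocultures, a choice that favours smaller effects elsewhere. Values below are the effect in cocultures minus the effect in oocyte-free complexes, on the log2 scale.

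Among genes that rose in cocultures and rose less, or differed less, without oocytes, the difference was 2.92 for Rbfox3, 2.86 for Tmem86a, 2.49 for Aqp8, 2.45 for Mark1, 2.42 for Tmem25 and 2.38 for Cbfa2t3. It was 1.84 for Serpina3a, 1.62 for Notum, 1.43 for Angpt4 and 1.1 for Igf2r. Gja4 at 1.49 and Id1 at 1.53 rose in cocultures and differed by -0.30 and -0.38 without oocytes.

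Among genes that fell in cocultures and changed less the same way without oocytes, the difference was -2.61 for Col4a1 and for Tmsb4x, -2.57 for Cald1, -1.82 for Cspg4, -1.78 for Tagln, -1.76 for Cd24a and -1.58 for Hspb1. It was -1.47 for Col4a2, -1.46 for Gli1, -1.44 for Ptger2 and -1.24 for Igfbp7.

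For genes that fell in cocultures and had the opposite sign without oocytes, the difference was -4.13 for Acta2, -4.10 for Gm2102, -3.55 for Filip1l, -2.93 for Slc38a4, -2.53 for Pxdc1 and -2.34 for Eps8. It was -2.07 for Ptch1, -2.04 for Csrp2, -2.03 for Pmepa1, -1.92 for Egr1, -1.83 for Gadd45a, -1.64 for Bmp2 and -1.59 for Id4. For genes with a larger rise without oocytes it was -2.42 for Crispld2, -2 for Hsd11b2, -1.51 for Slc38a3 and -1.36 for Nppc, of which Crispld2 and Nppc were not called in cocultures. The array series and the conflicting label of 1 oocyte-free array bear on each of these values, and without that array 249 genes had a called difference.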

How the results depend on the processing

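The number of arrays limits the precision, and values near the array medians carry folds that RMA understates. The coculture count of 570 was 878 without the oocyte-free arrays, 1930 with array weights, 361 under the stricter filter, 343 at adjusted p under 0.01, 309 with at least 2-fold, and 373 to 518 with 1 array left out (373 without replicate 3 with estrogen). The intact count of 708 was 1422 with only its groups in the fit, 1145 without the oocyte-free arrays, 1207 with the array series as a term, 1445 in array series 1 alone, 2214 with array weights, and 382 to 554 with 1 array left out. The oocyte-free count of 1181 was 209 with only its groups, 18 with those groups and the replicate block, 620 with the series term, 526 without the array with conflicting labels, 2680 with weights, and 526 to 1620 with 1 array left out. The difference between cocultures and intact complexes called 0 genes, 1 with the series term, 1 in series 1 alone and 2 with weights. That between cocultures and oocyte-free complexes called 341, and 199 with only its groups, 173 with those and the replicate block, 1557 with weights, 226 under the stricter filter and 233 to 542 with 1 array left out. The causes were not tested.

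The replicate block left the coculture count at 570, with 537 genes shared, and with only the coculture groups it gave 560. It ended the call of 1 of the 75 named called genes, Dusp6, and of 8 with only those groups. Of these 75 genes, 58 kept their call in every alternative, 17 lost it in at least 1 (Nrip1, Scarb1, Gata4, Fdft1, Lss and Bcl2l1 by probe set averaging, to 0.10 for Bcl2l1), and 0 reversed. Among uncalled genes, Amh was called with array weights (-0.32) and with probe sets averaged (-0.42), Nppc reversed to -0.01 without replicate 1 with estrogen (up to 0.3 with another array left out), and Kitl to -0.05 in series 1 alone and without replicate 2 without estrogen (up to 0.44). Without replicate 2 without estrogen, the calls of Nrip1, Scarb1, Grem1, Gata4, Foxo3, Fdft1, Has2, Hspa1b and Herpud1 were lost.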

Other observations

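In cocultures, genes of the imprinted Dlk1-Dio3 domain, a list drawn up after the values were seen, rose where they are noncoding RNAs. Rian read 7.92, 6.81 and 6.75 without and 9.80, 10.36 and 9.90 with estrogen in cocultures, and rose by 2.86 ± 0.33 (n = 3 per group; limma adjusted p = 2.72e-05). Meg3 read 9.77, 9.95 and 8.81 without and 11.61, 11.70 and 11.83 with estrogen, and rose by 2.20, and Mirg rose by 2.00. The arrays of each did not overlap, and 9 of 9 other tested probe sets of Meg3 were also called higher. The protein-coding neighbours Dlk1 at 0.36 and Wdr25 at 0.20 were not called. In intact complexes the differences were 3.79 for Rian, 2.37 for Meg3 and 2.82 for Mirg, and in oocyte-free complexes 1.60, 1.11 and 0.82. Of the 5 tested genes of the list, 4 were called higher in intact complexes and 1 was not called. At least 1 protein-coding neighbour therefore rose there, and the split seen in cocultures did not hold.

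On a list of 14 calcium and chloride channel genes, also drawn up after the values were seen, 5 rose and 1 fell. Of all tested genes 2.32% rose and 2.34% fell. The calcium-activated chloride channel gene Ano1 read 6.23, 6.18 and 5.91 without and 8.42, 8.55 and 8.20 with estrogen, and rose by 2.28, while its other tested probe set differed by 0.01 without a call. The calcium channel gene Cacna1a rose by 2.05 and its relative Cacna1c fell by 1.82, while both differed little without oocytes (0.03 and -0.11, not called). Clcn3, Itpr2 and Ano6 rose by 0.95, 0.65 and 0.61. The 3 arrays with estrogen lay apart from the 3 without for Ano1, Cacna1a and Cacna1c. Of 7 tested genes for corepressors and partners of Runx factors, Cbfa2t3 was the 1 called.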
